A study of Sus scrofa with 220 samples.

Results

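The genes described here are CLU (ENSSSCG00000009668), PLA2G7 (ENSSSCG00000001723), SLC44A4 (ENSSSCG00000001419) and DMXL1 (ENSSSCG00000027857), 4 of the 22840 gene entries counted in single cells of pig embryos. They were chosen by their values in late blastocysts (LB) and spherical embryos (Sph), as genes whose difference between epiblast (EPI) and hypoblast (HYPO) was not the same at both stages. Their LB and Sph values are therefore given as a description with no test. Only the earlier stages, which had no part in the choice, were tested. All 4 passed the filter used for testing, a value over 1 TPM, a read density per transcript length scaled to the total of the cell, in at least 3 cells, and they had a count in 113, 71, 19 and 171 of the 220 cells.

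The embryos developed in vivo in artificially inseminated crossbred Large White and Landrace sows, and no genetic change or treatment is given for them. Polyadenylated RNA of each cell was read with the Smart-seq2 protocol, in which reads fall along the whole transcript and carry no molecular identifiers. The cells were 47 of the morula (M), 24 of the inner cell mass (ICM) and 28 of the trophectoderm (TE) of early blastocysts (EB), 25 EPI and 36 HYPO cells of late blastocysts, and 48 EPI and 12 HYPO cells of spherical embryos. Trophectoderm of late blastocysts was removed with anti-pig serum and complement, whereas EPI and HYPO of spherical embryos were separated by hand, so stage and isolation cannot be told apart. The study also inferred the sex of each cell, by which HYPO cells were mostly female at LB and all male at Sph, so stage and sex are largely confounded within HYPO, and the part of sex was not tested. No TE cells of the LB and Sph stages were analysed here.

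Counts were summed over the cells that 1 embryo gave to 1 cell type, which left 8 sums for M, 7 for EB ICM, 10 for EB TE and, at LB and Sph, 4 and 4 for EPI and 5 and 3 for HYPO. Levels are log2(CPM + 1), where CPM is the share of the counts of a sum that fall on a gene, scaled as counts per 1e6 after TMM scaling, and SD is the spread between embryos. Gene counts per cell ranged from 1012604 to 5696373, with group medians from 1660326 to 2235587, and 6 sums held 1 cell each. One library went against its label, the only cell of embryo E6-ER, labelled EB TE. Its summed level over the 14 trophectoderm markers was 646 CPM, against 19669 to 60759 CPM in the other EB TE sums, and only 4 of the 14 had a count. The 3 Sph HYPO sums, at 18397 to 50448 CPM, overlapped with EB TE on the same list. The summed level of the 9 epiblast markers was 984 to 3429 CPM in EPI and 57.6 to 275 CPM in HYPO at LB, and 1911 to 2557 CPM in EPI and 201 to 450 CPM in HYPO at Sph. Not every marker followed this order, since at Sph GDF3, a TGF-beta family ligand, was at 7.58 ± 1.57 in EPI (SD, n = 4) and 8.04 ± 0.66 in HYPO (SD, n = 3), and NODAL, another such ligand, also overlapped between them. ETV1, a transcription factor, had the widest gap in favour of EPI at LB, with 7.65 ± 0.63 in EPI (SD, n = 4) and 0.62 ± 1.02 in HYPO (SD, n = 5). At Sph, SALL2, another transcription factor, stood at 6.75 ± 0.51 in EPI (SD, n = 4), with 1 count in HYPO. FN1, which encodes fibronectin, was higher in HYPO, by 6.34 at LB and 7.04 at Sph on this log2 scale. CUBN and AMN, which form an endocytic receptor complex of the visceral endoderm, had no count in LB HYPO or Sph HYPO.

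In mammals the inner cell mass gives rise to the epiblast, the source of the embryo proper, and to the hypoblast, an epithelium that lines the yolk sac and secretes lipoproteins and basement membrane. CLU encodes clusterin, a secreted chaperone and apolipoprotein that blocks the terminal complement complex and is taken up by receptors of the LDL receptor family. PLA2G7 encodes the secreted lipoprotein-associated phospholipase A2, which cleaves platelet-activating factor and oxidised phospholipids. SLC44A4 is a membrane transporter of the choline transporter-like family that carries thiamine pyrophosphate. DMXL1 belongs to the rabconnectin-3 family, which regulates assembly of the proton pump V-ATPase.

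CLU was almost absent from M and EB cells and abundant in every LB and Sph group. Over all M and EB cells it had 2 counts, 1 in M and 1 in EB TE. No cell of these groups exceeded TPM 1, and 0 of 47 M cells allows a share of up to 6.38%, taken as 3 cells of the total. In LB EPI the level per embryo was 9.24 in AN, 10.30 in AO, 9.55 in AP and 8.77 in AQ, a mean of 9.47 ± 0.64 (SD, n = 4). In LB HYPO it was 8.62 in AL, 7.75 in AM, 7.36 in AN, 8.31 in AO and 5.77 in AP, a mean of 7.56 ± 1.12 (SD, n = 5). Every LB EPI embryo stood above every LB HYPO embryo, by narrow margins at the edge, 8.77 in AQ against 8.62 in AL. At the Sph stage the order was the opposite. Sph EPI gave 7.03 in C, 6.32 in D, 7.02 in E and 7.91 in F, a mean of 7.07 ± 0.65 (SD, n = 4), and Sph HYPO 11.38 in C, 9.36 in E and 10.24 in F, a mean of 10.33 ± 1.01 (SD, n = 3). No Sph EPI embryo reached the lowest Sph HYPO embryo. The fitted log2 fold change of EPI against HYPO was 1.71 (SE 0.50) at LB and −3.37 (SE 0.52) at Sph.

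Between stages, CLU was lower in EPI and higher in HYPO at Sph. The log2 fold change of LB against Sph was 2.48 (SE 0.41) within EPI and −2.81 (SE 0.55) within HYPO, and the LB and Sph embryos did not overlap in either cell type. The share of cells over TPM 1 varied less than the level. It was 25 of 25 cells in LB EPI and 12 of 12 in Sph HYPO, against 29 of 36 in LB HYPO (80.6%, exact 95% interval 64.0 to 91.8%) and 41 of 48 in Sph EPI (85.4%, 72.2 to 93.9%). Mean TPM per cell was 372 in EPI and 124 in HYPO at LB, and 74.4 in EPI and 667 in HYPO at Sph. In order of mean level, Sph HYPO and LB EPI overlapped between embryos, as did LB HYPO and Sph EPI. These intervals, like all intervals and limits given here, cover counting error only and treat the cells of 1 embryo as independent.

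**Figure D1:**
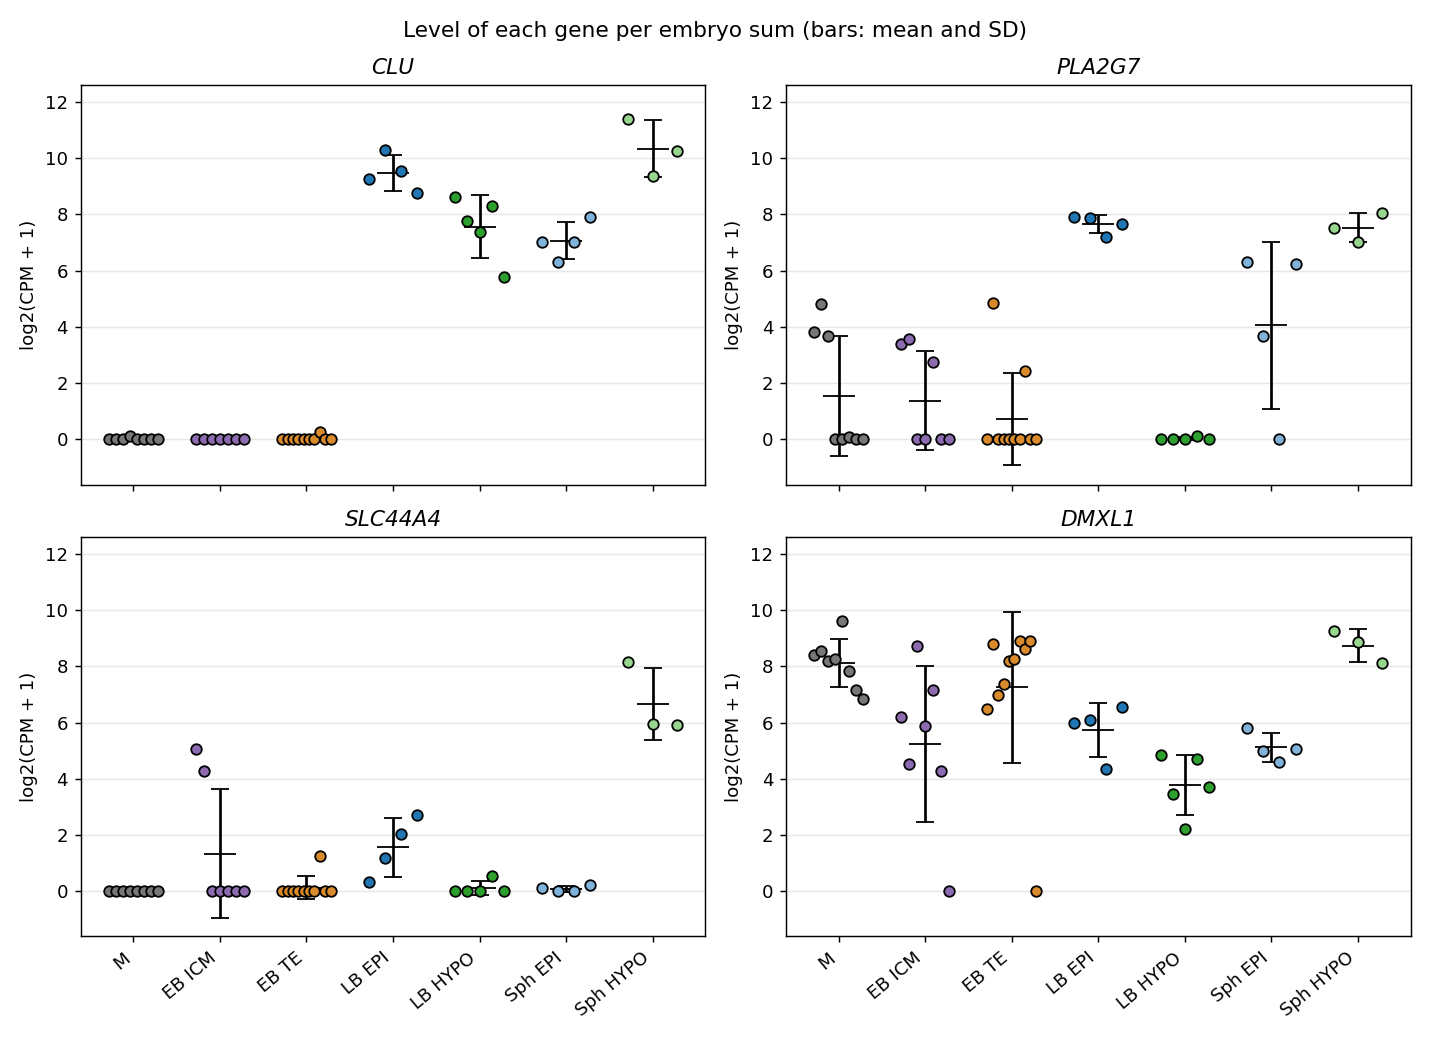
Level of each gene as log2(CPM + 1) on the vertical axis for the 7 cell type labels on the horizontal axis, with 1 point per embryo sum and bars for the mean and SD. CLU lies at or near 0 in M, EB ICM and EB TE, PLA2G7 near 0 in LB HYPO between 2 groups at 7.53 and 7.66, SLC44A4 highest in Sph HYPO, and DMXL1 lowest on average in LB HYPO at 3.79.

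PLA2G7 was close to all or nothing between EPI and HYPO at LB, and present in both at Sph. LB EPI levels were 7.90 in AN, 7.88 in AO, 7.20 in AP and 7.67 in AQ, a mean of 7.66 ± 0.32 (SD, n = 4) from 9998 counts. LB HYPO had 2 counts in all, both in embryo AO, and the other 4 embryos had none. The ratio of pooled CPM between LB EPI and LB HYPO was 6387, with an exact 95% counting interval from 1768 to 52746. This interval treats every read as independent, although the reads carry no molecular identifiers and the LB HYPO counts came from 1 cell. In LB HYPO, 0 of 36 cells exceeded TPM 1, which by the same rule allows a share of up to 8.33%, whereas 20 of 25 LB EPI cells did (80.0%, 59.3 to 93.2%).

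In Sph HYPO the PLA2G7 level was 7.50 in C, 7.03 in E and 8.06 in F, a mean of 7.53 ± 0.52 (SD, n = 3), and 10 of 12 cells exceeded TPM 1. These embryos overlapped with those of LB EPI, and the means differed by 0.13. Sph EPI spread more widely, with 6.30 in C, 3.67 in D, no count in the 4 cells of E and 6.25 in F, and 27 of 48 cells exceeded TPM 1 (56.2%, 41.2 to 70.5%). All 4 Sph EPI embryos lay below the 3 Sph HYPO embryos and below the 4 LB EPI embryos. Mean TPM was 27.1 in Sph EPI, against 116 in both LB EPI and Sph HYPO. The fitted log2 fold change of EPI against HYPO at Sph was −2.23 (SE 1.38), and pooled CPM was 4.26-fold higher in Sph HYPO.

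SLC44A4 was sparse outside Sph HYPO. In that group it reached 8.14 in C, 5.96 in E and 5.90 in F, a mean of 6.67 ± 1.28 (SD, n = 3), and 8 of 12 cells exceeded TPM 1 (66.7%, 34.9 to 90.1%). All 4 cells of C and E were among them, with 4 of the 8 cells of F. The 48 Sph EPI cells held 10 counts between them, and pooled CPM was 1001-fold higher in Sph HYPO. In LB EPI the level was 0.32 in AN, 1.19 in AO, 2.04 in AP and 2.73 in AQ, from 174 counts. These came mostly from few cells, 3 of 25 over TPM 1, and 1 cell of AQ held 80.4% of the summed TPM of the group. LB HYPO had 12 counts, all in 1 cell of AO, and the embryo ranges of LB EPI and LB HYPO overlapped. The fitted log2 fold changes of EPI against HYPO were 4.34 (SE 2.14) at LB and −10.65 (SE 1.57) at Sph. Between stages, LB against Sph was −9.97 (SE 1.72) within HYPO and 5.15 (SE 2.17) within EPI, and the LB and Sph embryos did not overlap in either. Within EPI the gap lay near 0 and rested on very few counts. It was 0.32 from 1 count in AN at LB against 0.23 from 7 counts in F at Sph.

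DMXL1 was the only one of the 4 with counts in most cells of the earlier stages, and its lowest mean level was that of LB HYPO. LB EPI levels were 5.97 in AN, 6.09 in AO, 4.36 in AP and 6.57 in AQ, a mean of 5.75 ± 0.96 (SD, n = 4). LB HYPO levels were 4.85 in AL, 3.45 in AM, 2.23 in AN, 4.69 in AO and 3.71 in AP, a mean of 3.79 ± 1.06 (SD, n = 5). These 2 groups overlapped, since the EPI sum of AP lay below the HYPO sums of AL and AO. Sph EPI, at 5.81 in C, 4.98 in D, 4.60 in E and 5.07 in F, overlapped with LB EPI. Sph HYPO, at 9.24 in C, 8.85 in E and 8.11 in F, stood apart from all other LB and Sph sums, with a mean of 8.74 ± 0.58 (SD, n = 3). The log2 fold change of EPI against HYPO was 1.92 (SE 0.90) at LB and −3.65 (SE 0.51) at Sph. Within HYPO, LB against Sph was −4.91 (SE 0.71), and within EPI 0.86 (SE 0.64). All 12 Sph HYPO cells exceeded TPM 1, against 15 of 36 in LB HYPO (41.7%, 25.5 to 59.2%), 11 of 25 in LB EPI (interval 24.4 to 65.1%) and 26 of 48 in Sph EPI (54.2%, 39.2 to 68.6%).

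Some embryos gave both EPI and HYPO cells, which allows the difference to be read within an embryo. At LB these were AN, AO and AP. For CLU the EPI level exceeded the HYPO level by 1.88, 1.99 and 3.79 in these embryos, for PLA2G7 by 7.90, 7.77 and 7.20, for SLC44A4 by 0.32, 0.63 and 2.04, and for DMXL1 by 3.74, 1.39 and 0.65. At Sph, in C, E and F, the difference had the other sign in every embryo for every gene. It was −4.36, −2.35 and −2.32 for CLU, −1.20, −7.03 and −1.82 for PLA2G7, −8.01, −5.96 and −5.67 for SLC44A4, and −3.44, −4.25 and −3.04 for DMXL1. The within-embryo values of SLC44A4 at LB rest on 1, 15 and 53 EPI counts against 0, 12 and 0 HYPO counts. Some of these sums held few cells, so the embryos do not weigh equally. At LB the EPI sum of AN and the HYPO sum of AP held 2 cells each. At Sph the HYPO sums of C and E held 2 cells each, against 8 in F. The value of −7.03 for PLA2G7 in E sets 0 counts in 4 EPI cells against 402 counts in 2 HYPO cells.

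**Figure D2:**
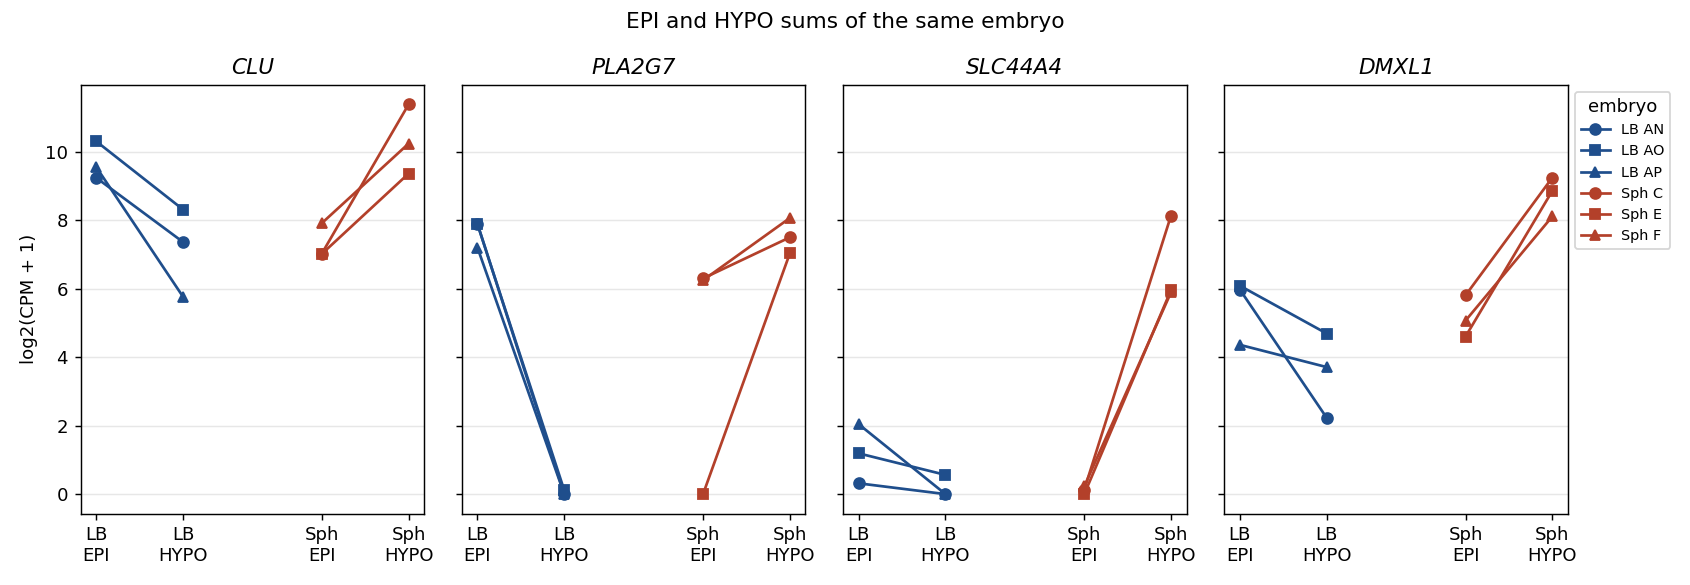
Levels as log2(CPM + 1) in EPI and HYPO sums of the same embryo, joined by a line, for 3 LB embryos and 3 Sph embryos, with 1 panel per gene. Every LB line falls from EPI to HYPO and every Sph line rises, with differences from 0.32 to 7.90 at LB and from −8.01 to −1.20 at Sph. The HYPO sums of AP, C and E and the EPI sum of AN held 2 cells each.

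In Sph HYPO, CLU and DMXL1 exceeded TPM 1 in all 12 cells, PLA2G7 in 10 and SLC44A4 in 8. All 4 did so in 8 of the 12 cells, a number that these shares leave little room to vary. Each of the 8 cells with SLC44A4 also had PLA2G7. Whether the genes go together within cells beyond their shares was not tested. In LB EPI all 4 exceeded TPM 1 in 1 of 25 cells. There, all 25 cells had CLU, so each of the 20 cells with PLA2G7 had it too. Of these 20 cells, 9 had DMXL1 and 2 had SLC44A4. In Sph EPI, 41 of 48 cells had CLU, among them 25 of the 27 cells with PLA2G7, and no cell had all 4. Over the 41 embryo sums the Pearson correlation of levels was 0.61 between CLU and PLA2G7, 0.59 between PLA2G7 and SLC44A4, and −0.21 between CLU and DMXL1, values to which the choice of the genes itself contributes.

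**Figure D3:**
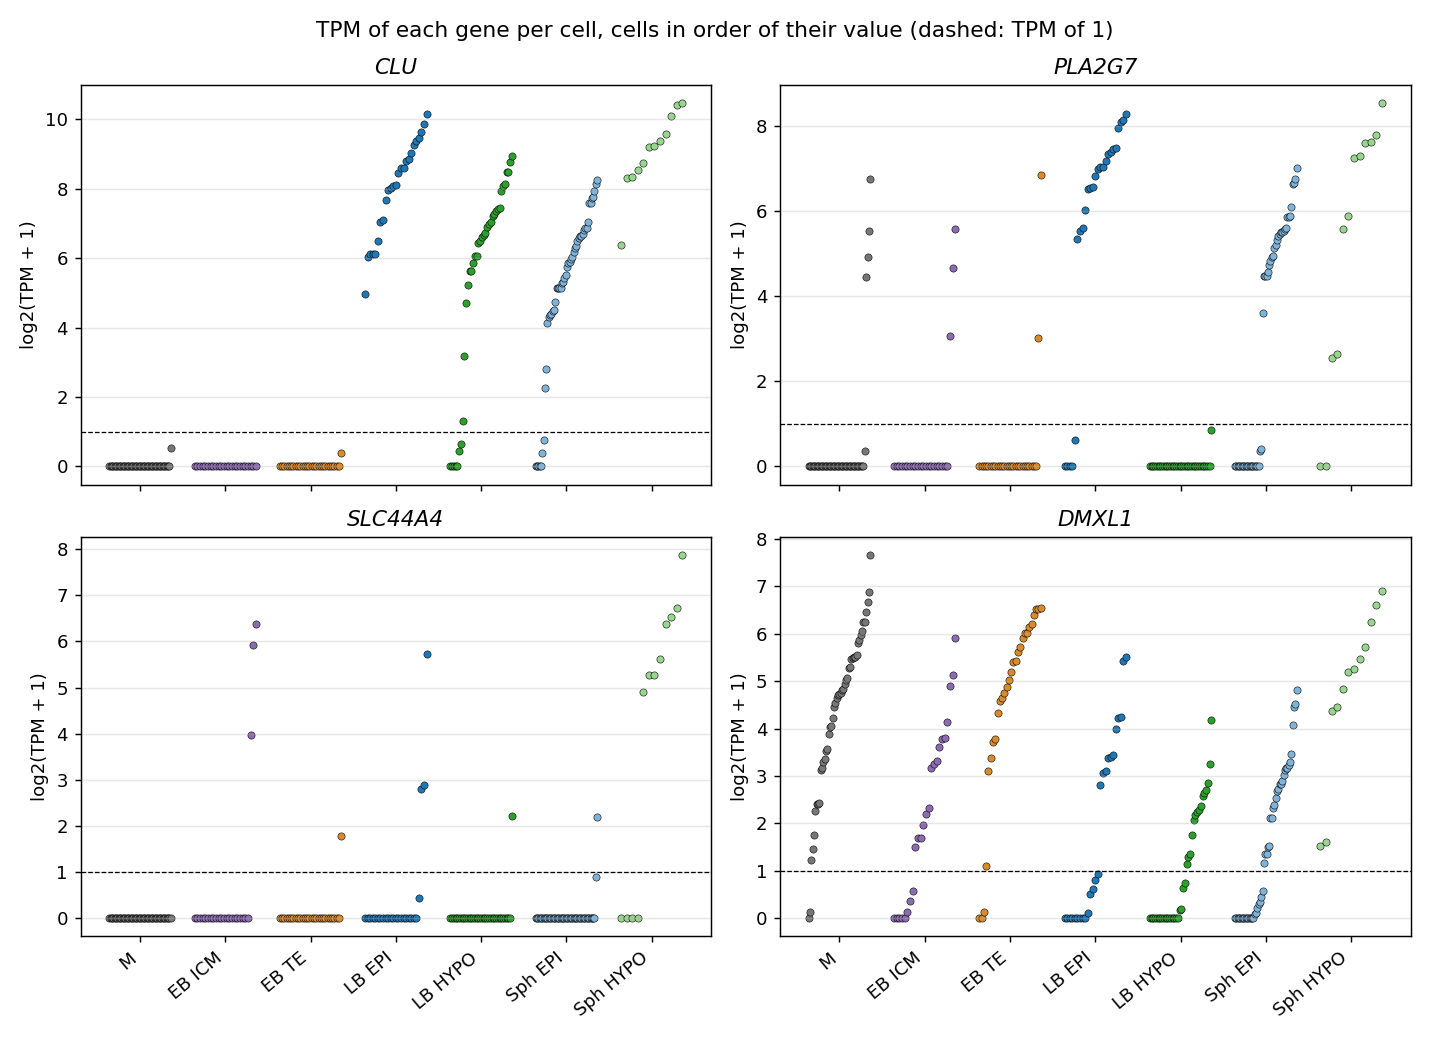
TPM of each gene per cell as log2(TPM + 1), with the cells of each label in order of their value and a dashed line at TPM 1. All 12 Sph HYPO cells lie above the line for CLU and DMXL1, 10 for PLA2G7 and 8 for SLC44A4, whereas all 36 LB HYPO cells lie below it for PLA2G7.

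The contrast that chose the genes, EPI against HYPO at LB minus the same at Sph, was past the threshold for 6 of the 14721 genes tested, or 0.0408%. This log2 difference was 5.16 (SE 0.78) for CLU, 14.67 (SE 2.04) for PLA2G7, 14.90 (SE 2.53) for SLC44A4 and 5.66 (SE 0.97) for DMXL1, and nothing is read from the count of members. The 2 further genes inside the threshold were KRT18, a keratin of simple epithelia, at 4.63 (SE 0.79), and an entry without a symbol, ENSSSCG00000016548, at −4.34 (SE 0.76). The first gene outside it was SSR2, a subunit of the translocon-associated protein complex, at −2.33 (SE 0.42). How many genes passed depended on single sums. Leaving out 1 sum at a time gave 0 to 165 genes, with 165 without the HYPO sum of F and none without the EPI sum of C or of D, and a fit with the embryo as a block gave 13.

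Among the LB and Sph groups, the summed level of trophectoderm markers was highest in Sph HYPO, but single markers went both ways. From LB HYPO to Sph HYPO the mean level rose from 10.88 to 14.67 for KRT8 and from 7.56 to 11.54 for KRT18. It also rose from 1.59 to 5.59 for GATA3 and from 0.04 to 6.12 for EOMES. For DAB2 it rose from 5.28 to 8.10 and for CLDN4 from 8.09 to 9.42. The mean level fell from 7.47 to 3.88 for ANXA6, from 4.53 to 0.93 for CLDN8 and from 4.11 to 0.36 for TFAP2C. GATA2, TFAP2A, TEAD1 and ELF3 also had lower means in Sph HYPO. The summed level of the 14 markers was 18397 to 50448 CPM in the 3 Sph HYPO sums, against 2787 to 11244 in Sph EPI, 1723 to 3387 in LB HYPO and 3260 to 5567 in LB EPI. Most of it came from KRT8, another simple epithelial keratin, which ranged from 13984 to 54934 TPM over the 12 Sph HYPO cells. KRT18, CLDN4, a tight junction claudin, and DAB2, an endocytic adaptor, were also over TPM 1 in all 12. EOMES, a T-box factor, exceeded TPM 1 in 10 of them, GATA3 and ANXA6 in 9 each, TEAD1 in 5, TFAP2A and ELF3 in 2 each and CLDN8 in 1. CDX2 had no count, GATA2 1 count and TFAP2C 6 counts, and no cell exceeded TPM 1 for any of the 3. In EB TE, TFAP2C exceeded TPM 1 in 28 of 28 cells, TFAP2A in 27, CLDN8 in 26 and GATA2 in 25, but CDX2 in 1 and EOMES in none. All 12 cells also carried hypoblast transcripts, with FN1 between 430 and 4100 TPM and LAMB1, a laminin chain, between 32.2 and 276 TPM. The summed level of the 13 hypoblast markers was 6596 to 16896 CPM in Sph HYPO and 5722 to 15274 CPM in LB HYPO. In EB TE, where the trophectoderm markers had their highest median, CLU had 1 count, PLA2G7 exceeded TPM 1 in 2 of 28 cells and SLC44A4 in 1, whereas DMXL1 did so in 25. EB TE is of an earlier stage and no TE cells of LB or Sph were analysed, so these values do not give levels in later TE. The part of trophectoderm transcripts in the levels of the 4 genes was not tested. Of the 9 markers of blood or uterine cells, 6 had no count in Sph HYPO, of which PTPRC and CSF1R had none in any group. EPCAM, an epithelial adhesion protein, exceeded TPM 1 in all 12 cells, CD68 in 1, and ALAS2, a haem synthesis enzyme of red cells, in 4, with 729 counts in 1 sum. The summed level of the 9 markers was 188 to 1423 CPM in Sph HYPO, 124 to 654 CPM in Sph EPI, 94.7 to 868 CPM in LB EPI and 80.1 to 538 CPM in LB HYPO. In Sph HYPO most of it came from EPCAM, at 7.17 to 10.48 as log2(CPM + 1). The sum is therefore no measure of blood or uterine cells.

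**Figure D4:**
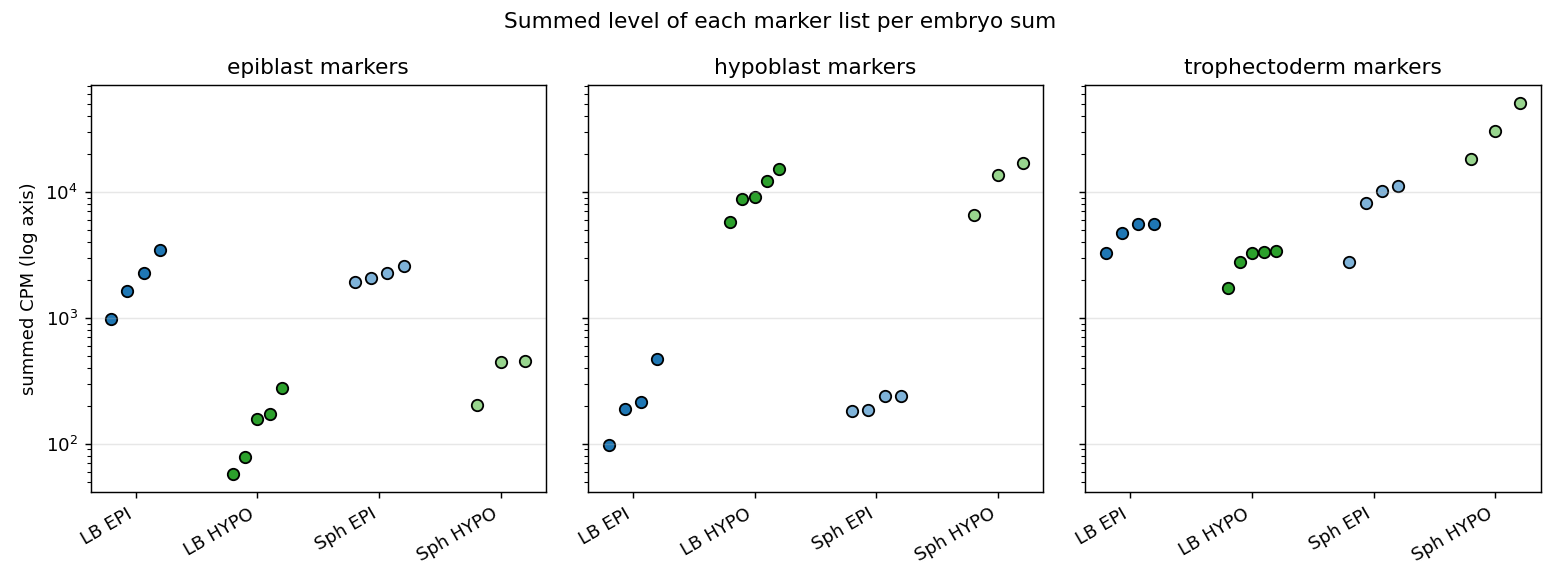
Summed CPM of the epiblast, hypoblast and trophectoderm markers on a log axis, with 1 point per embryo sum, for EPI and HYPO at the LB and Sph stages. Epiblast markers are higher in EPI and hypoblast markers in HYPO at both stages, and the 3 Sph HYPO sums have the highest trophectoderm sums, from 18397 to 50448 CPM.

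The earlier stages were not used in the choice and were tested. In the comparison of EB ICM with EB TE, 111 of 14721 genes passed, or 0.754%. For M against EB ICM it was 361, or 2.45%, and for M against EB TE 119, or 0.808%. CLU had at most 1 count in each of these groups and is given no fold change. Among the 9 tests of the other 3 genes, none passed in edgeR's quasi-likelihood test with Benjamini-Hochberg adjustment, 3 had an unadjusted p under 0.05, all of them of SLC44A4, and 1 passed with DESeq2.

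SLC44A4 had no count in any M cell. In EB ICM it had 661 counts in 3 cells, 2 of embryo AA and 1 of AC, with levels of 5.05 and 4.28 and no count in the other 5 embryos. In EB TE it had 7 counts in 1 cell of AH. Pooled CPM was at least 423-fold higher in EB ICM than in M, with 3 counts over the M group as the floor, and 106-fold higher in EB ICM than in EB TE. The adjusted p of edgeR was 0.0798 for M against EB ICM, 0.129 for EB ICM against EB TE and 0.0965 for M against EB TE. Under the alternatives the adjusted p ranged from 2.7e-14 to 0.217 for the first and from 0.0423 to 0.815 for the second, and passed under 2 of 24 and 1 of 26 of them. The 2 that passed for M against EB ICM were DESeq2 and 1 model of all 7 groups. The lowest value there is no measure of support, since M had no count and EB ICM had counts in 3 cells. The DESeq2 fold of −24.67 has no meaning against 0 counts.

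DMXL1 was present in most early cells, over TPM 1 in 45 of 47 M cells, 16 of 24 EB ICM cells and 25 of 28 EB TE cells. Over the M embryos the level had a lowest value of 6.84, a median of 8.22 and a highest of 9.61. EB TE had a median of 8.21 and a highest of 8.91, with 6.49 as the lowest apart from embryo E6-ER, whose only cell had no count. EB ICM had a median of 5.88 and a highest of 8.72, with no count in AI. M and EB TE overlapped, and EB ICM overlapped with both. The log2 fold change was 1.57 (SE 0.80, edgeR adjusted p = 0.252) for M against EB ICM, −1.38 (SE 0.98, edgeR adjusted p = 0.638) for EB ICM against EB TE and 0.22 (SE 0.65, edgeR adjusted p = 1) for M against EB TE. Without E6-ER the EB ICM against EB TE value was −1.54 (edgeR adjusted p = 0.311). With sums of at least 2 cells only, M against EB ICM passed, at 2.37 (edgeR adjusted p = 0.0292).

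PLA2G7 was detected in few early cells, over TPM 1 in 4 of 47 M cells, 3 of 24 EB ICM cells and 2 of 28 EB TE cells. The 4 M cells had 20.8 to 107 TPM, the 3 EB ICM cells 7.32 to 46.99 TPM, and the 2 EB TE cells 7.02 and 113 TPM. Its median level over embryos was 0.04 in M and 0 in EB ICM and EB TE, and the highest embryos were 4.81, 3.56 and 4.84. The groups overlapped, and the edgeR adjusted p was 0.956 for M against EB ICM, 1 for EB ICM against EB TE and 0.946 for M against EB TE.

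The surroundings of the 4 genes were read from 5 lists of 136 genes chosen for their roles, of which 95 matched an entry and 78 were tested. At LB, 1.92% of all genes tested passed for EPI against HYPO, 283 of 14721, and 20 of them with the embryo as a block. At Sph it was 1.13%, 167 genes, and 82 with the block. In the lists, 2 of the 78 entries passed at LB and 5 at Sph. None passed in the difference between the stages by edgeR, where 13 had an unadjusted p under 0.05 and 6 passed with DESeq2.

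Apolipoproteins, the lipid carriers to which clusterin belongs, were lower in Sph EPI than in Sph HYPO for 4 genes. Of 14 tested genes of lipoproteins and clusterin receptors, 4 were lower in EPI at Sph and none higher. APOA2, an apolipoprotein of high-density lipoprotein, stood at 10.59 ± 0.91 in Sph HYPO (SD, n = 3) with 1 count in Sph EPI (edgeR adjusted p = 1.1e-05). APOC3, an inhibitor of lipoprotein lipase, was at 7.36 ± 1.55 with 4 counts in Sph EPI (edgeR adjusted p = 0.00138). APOM, a carrier of sphingosine 1-phosphate, differed by −10.36 (SE 1.59, edgeR adjusted p = 0.0122), and APOE, a ligand of the LDL receptor, by −2.87 (SE 0.48, edgeR adjusted p = 0.0177). APOM and APOE lost the call without the EPI sum of E, at edgeR adjusted p = 0.0629 and 0.0553, and APOE also with the embryo as a block, at 0.0974. Both were lost in 1 model of all 7 groups, and APOC3 and APOE within the last 4 of the 8 library pools. At LB the same 4 had log2 fold changes from −4.96 to −3.19 that did not pass. MTTP, which loads lipid onto apolipoprotein B, passed there at −6.00 (edgeR adjusted p = 0.0360), but not with the embryo as a block (0.112) nor without any of 6 of the 9 sums, the EPI sum of AP and all 5 HYPO sums, with values up to 0.0906, and it passed under 6 of 18 alternatives in all. In EB ICM against EB TE, APOC3 was at 3.98 ± 2.98 in EB ICM (SD, n = 7), with 7 counts in EB TE (edgeR adjusted p = 0.0128). This call and the other 5 list calls of that comparison, given with their genes, were lost with the embryo as a block and within each set of 4 library pools. The median log2 fold change of this list was −1.88 at LB, against 0 over all genes tested, and −3.26 at Sph, against 0.57. Of clusterin receptors, VLDLR had 1410 counts in EPI and 2 in HYPO at LB (edgeR adjusted p = 0.0501) and a log2 fold change of −0.87 at Sph (edgeR adjusted p = 0.914). LRP8 had no count in HYPO at either stage and was at least 98.8-fold higher in EPI at LB and 72.9-fold at Sph, against 3 counts over the HYPO group (edgeR adjusted p = 0.244 and 0.209). These folds pool the embryos. The EPI level of LRP8 was 0.94 ± 1.87 at LB (SD, n = 4), where EPI and HYPO embryos overlapped. At Sph it was 2.70 ± 1.64 (SD, n = 4), where they did not.

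Complement genes, whose terminal complex clusterin inhibits, gave no calls for EPI against HYPO. Of the 12 tested, 0 passed in edgeR at either stage, with 3 at LB and 4 at Sph at an unadjusted p under 0.05, and 0 and 1 with DESeq2. In EB ICM against EB TE 2 passed. C1QA, a chain of the first complement component, was at 5.25 ± 1.01 in EB ICM (SD, n = 7) with no count in EB TE, at least 1000-fold higher against 3 counts over the EB TE group (edgeR adjusted p = 0.00388). CFD, a serine protease of the alternative pathway, was at 3.27 ± 1.96, at least 359-fold higher (edgeR adjusted p = 0.0381). Neither passed with the embryo as a block, at 0.170 and 0.397, and CFD passed in only 2 of the 17 fits without 1 sum, whose adjusted p reached 0.0844.

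Among phospholipases A2 and enzymes of platelet-activating factor, the substrate of PLA2G7, 1 of 14 tested genes passed at Sph and 0 at LB in edgeR, where 4 had an unadjusted p under 0.05 and 2 passed with DESeq2. LPCAT2, which makes platelet-activating factor, was at 8.01 ± 0.35 in Sph EPI (SD, n = 4), with 2 counts in Sph HYPO (edgeR adjusted p = 0.00221), a call lost in 1 model of all 7 groups. Its difference at LB had the same sign, 7.61 (edgeR adjusted p = 0.0626). In EB ICM it was at 4.63 ± 2.55 (SD, n = 7), with no count in EB TE (edgeR adjusted p = 0.0128), and the secreted phospholipase gene PLA2G12B was at 4.92 ± 2.21, also with no count there (edgeR adjusted p = 0.00927). With the embryo as a block these 2 were at 0.160 and 0.202. The list's median log2 fold change was −0.12 at LB and 0.91 at Sph.

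Choline and thiamine transport and phosphatidylcholine synthesis gave 0 calls of 19 in edgeR for EPI against HYPO at either stage, with 4 and 7 at an unadjusted p under 0.05 and 1 and 6 with DESeq2. The relatives of SLC44A4 did not pass. The log2 fold change of SLC44A1 was 0.41 at LB and −1.92 at Sph (edgeR adjusted p = 0.958 and 0.354). That of SLC44A2 was 2.87 at LB (edgeR adjusted p = 0.551), and at Sph it had 2997 counts in EPI and none in HYPO, at least 221-fold higher against 3 counts over the HYPO group (edgeR adjusted p = 0.192). CHPT1, the last enzyme of phosphatidylcholine synthesis, passed for EB ICM against EB TE, at 3.57 ± 2.53 in EB ICM (SD, n = 7) with 2 counts in EB TE (edgeR adjusted p = 0.0113, and 0.209 with the embryo as a block). The list's median was 0.30 at LB and 0.90 at Sph.

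Of 19 tested V-ATPase subunits and assembly factors, 1 passed at LB and 0 at Sph in edgeR, where 4 had an unadjusted p under 0.05 and 2 passed with DESeq2. ATP6V1F, a subunit of the catalytic sector, was at 6.05 ± 0.47 in LB EPI (SD, n = 4) and 8.76 ± 0.31 in LB HYPO (SD, n = 5), a log2 fold change of −2.74 (SE 0.39, edgeR adjusted p = 0.00298, and 0.102 with the embryo as a block). This sign was opposite to that of DMXL1 at the same stage. WDR7, the rabconnectin-3 beta subunit that pairs with DMXL proteins, had 0.26 at LB and 1.27 at Sph (edgeR adjusted p = 1 and 0.854). The list's median was −0.48 at LB and −0.11 at Sph.

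The genes whose levels were most like each member over the 41 embryo sums were taken by Pearson correlation among 9411 tested genes with a symbol and a varying level. For CLU these were UPK1B, a uroplakin of epithelial membranes, at 0.96, FSCN1, an actin-bundling protein, at 0.91, and TAGLN, an actin-binding protein, at 0.89. UPK1B was, like CLU, at or near 0 in M, EB ICM and EB TE, and averaged 5.86 in EPI and 4.98 in HYPO at LB, and 6.42 in EPI and 7.46 in HYPO at Sph. For PLA2G7 they were CYRIA at 0.78, SULF1 at 0.77 and MID1 at 0.77. CYRIA, a regulator of Rac signalling, averaged 6.84 in EPI and 1.83 in HYPO at LB, and 7.81 in EPI and 7.08 in HYPO at Sph. For SLC44A4 they were SLC9A9, an endosomal sodium-proton exchanger, at 0.87, FMOD, a collagen-binding proteoglycan, at 0.83, and DNTT, a template-independent DNA polymerase, at 0.82. FMOD averaged 7.72 in Sph HYPO and DNTT 5.92, with DNTT at 0 in all other groups. For DMXL1 they were ATP6V0D2, a subunit of the membrane sector of V-ATPase, at 0.71, PORCN, which acylates Wnt proteins, at 0.69, and NPC2, a lysosomal sterol carrier, at 0.69. ATP6V0D2 averaged 9.77 in M, 4.87 in EB ICM and 8.52 in EB TE, but 3.77 in Sph HYPO, where DMXL1 was highest. The sums share stages and libraries, so these correlations describe patterns over 7 groups more than independent points.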

How the data were processed

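Cells were grouped by their labelled cell type, and the embryo was read from the letters of the cell identifier. The authors aligned reads with HISAT2 2.1.0 to Sus scrofa 10.2 and counted uniquely mapped reads per Ensembl gene with HTSeq. The authors deposited these raw counts and the TPM values derived from them. Symbols came from a table of Ensembl names that matched 11437 of 22840 entries. Whether counting used strand was not given in the sources used here.

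Raw counts were summed per embryo and cell type (41 sums), and 1 morula cell without an embryo was left out. Genes over TPM 1 in at least 3 cells (14721) were tested with edgeR 4.0.16 (R 4.3.3), with TMM, glmQLFit and glmQLFTest on the groups compared, Benjamini-Hochberg adjustment and a threshold of 0.05. SE is the absolute log2 fold change over the square root of F. Levels used a pseudocount of 1. Shares carry exact Clopper-Pearson 95% intervals (scipy 1.17.1). Gene counts per cell (1012604 to 5696373) limit precision. The procedure was tested on simulated data, with sums drawn independently and changes placed only in genes above a low mean level. That test had no pairing by embryo, so it does not cover the pairing, nor changes in genes of low mean level. Pairs of cells with identical counts numbered 0, and the closest pair correlated at 0.833.

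EPI and HYPO, or ICM and TE, sums of 1 embryo are paired by the cell identifiers. In residuals from the group means over 7035 genes, the median correlation within embryos was 0.05 for the 7 EB embryos with both, 0.03 for 3 LB embryos and 0.07 for 3 Sph embryos, against −0.01, −0.02 and −0.05 between embryos. The embryo was therefore a block only among the alternatives. The LB and Sph medians rest on 3 embryos each, with values from 0.02 to 0.23 at Sph. They cannot show that the pairing is negligible for a given gene. Others were DESeq2 1.42.0, no TMM, no filter, 1 model of all 7 groups, sums of at least 2 cells, cells of certain embryo, 4 of the 8 library pools named in the sample titles, and each sum left out in turn.

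The members, marker lists and pathway lists were chosen with earlier results of these data known. Genes named were the members, pathway genes that passed for EPI against HYPO or EB ICM against EB TE, the 3 genes most correlated with each member, and the markers that differed most between EPI and HYPO. Receptors, SLC44A relatives, WDR7, the genes near the threshold and further markers were named after their values were seen. Sequences are not shown.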

Additional observations from a re-analysis of the deposited data

Results flagged for a closer look

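For each of the 4 genes, EPI minus HYPO was positive in all 3 LB embryos with both cell types and negative in all 3 Sph embryos, the pattern by which they were chosen, and the difference was not tested. The mean on the log2(CPM + 1) scale was 2.55 at LB and −3.01 at Sph for CLU, 7.62 and −3.35 for PLA2G7, 0.995 and −6.55 for SLC44A4, and 1.93 and −3.58 for DMXL1.

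In 22 groups of 4 to 10 sums with a spread, 7 held a sum far from the others. Chance gives about 1 in 20 for values that vary continuously. This does not apply to the 5 groups below in which all other sums were 0. Nor does it apply to PLA2G7 in EB TE, where 8 of the 10 sums had no count. PLA2G7 in EB TE reached 4.84 in embryo AB, with 487 counts, against 0 to 2.44 in the other sums. DMXL1 in EB TE was 0 in E6-ER, the cell that lacked most trophectoderm markers, against 6.49 to 8.91. In those 5, any sum with a count stands apart by construction. CLU was 0.11 in U of M and 0.27 in AH of EB TE, from 1 count each. SLC44A4 was 1.27 in AH of EB TE, from 7 counts. In AO of LB HYPO, PLA2G7 was 0.11, from 2 counts, and SLC44A4 0.56, from 12 counts.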

How the results depend on the processing

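The LB and Sph log2 fold changes of EPI against HYPO, and their difference, kept their sign for all 4 genes in all 236 refits, and 218 of these moved by less than the spread between embryos. The genes were chosen by this contrast in the same cells, so the kept signs describe the processing only and are no independent support. Of the 229 refits of the tested comparisons of PLA2G7, SLC44A4 and DMXL1, 11 changed the sign and 4 passed the threshold. The cause of the changes below was not tested. At the depth of these libraries the LB values of SLC44A4 and PLA2G7 rest on 12 and 2 counts in LB HYPO, and CLU had at most 1 count in each early group.

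With DESeq2 the number of genes called was 449 for EB ICM against EB TE, 1205 for M against EB ICM, 608 for M against EB TE, 1369 at LB, 1437 at Sph and 540 for the difference between stages, and SLC44A4 passed for M against EB ICM at −24.67, a size that has no meaning against 0 counts. With 1 model of all 7 groups the counts were 865 for EB ICM against EB TE, 894 for M against EB TE, 170 at LB and 95 at Sph, and SLC44A4 passed at 5.55 for EB ICM against EB TE and −9.33 for M against EB ICM. With the embryo as a block they were 89 for EB ICM against EB TE, 20 at LB, 82 at Sph and 13 for the difference, PLA2G7 was 12.04 at LB and SLC44A4 13.88 in the difference, and the block changed no call of the 4 genes. No block could be fitted for M, which shares no embryo with EB. No TMM gave 13 genes and no filter 10 for the difference. Sums of at least 2 cells gave 241 genes for M against EB TE and 3 for the difference, and DMXL1 passed for M against EB ICM at 2.37. Without the cells of less certain embryo 184 genes passed for EB ICM against EB TE and 219 for M against EB TE.

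In the first 4 library pools the counts were 39 for EB ICM against EB TE, 38 for M against EB ICM, 20 for M against EB TE, 113 at LB and 13 for the difference. PLA2G7 was −2.02, −6.61 and −8.64 in the 3 tested comparisons, DMXL1 −0.16 for M against EB TE, PLA2G7 11.46 and SLC44A4 2.45 at LB, and SLC44A4 −13.96 at Sph and 16.05 in the difference. In the last 4 pools the counts were 9, 132, 50, 64, 89 and 0 in the same order with Sph before the difference. There PLA2G7 was 13.74, SLC44A4 3.54 and DMXL1 3.04 at LB, and SLC44A4 −8.37 at Sph and 11.96 in the difference.

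Leaving out each sum gave 58 to 184 genes for EB ICM against EB TE, 56 to 219 for M against EB TE, 138 to 294 at LB, 78 to 583 at Sph and 0 to 165 for the difference. PLA2G7 ranged from −0.28 to 2.80 for EB ICM against EB TE, from −0.094 to 1.26 for M against EB ICM, from 11.80 to 14.09 at LB and from 14.20 to 16.78 in the difference. DMXL1 ranged from −0.15 to 0.34 for M against EB TE. SLC44A4 ranged from 3.64 to 7.75 at LB, the highest without the HYPO sum of AO, from −11.50 to −9.54 at Sph and from 13.88 to 18.89 in the difference. Of 248 alternative values of mean levels, 26 moved by more than the spread between embryos, and of 56 shares of cells with other thresholds, 8 left their interval.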
